A study of Mus musculus with 2 samples.

Results

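The cyclin-dependent kinase inhibitor Cdkn1a (p21) and the genes around the tumour suppressor p53 that halt the cell cycle or start apoptosis were examined in mouse liver after injury of the kidneys. The list held 10 genes, namely Cdkn1a, Cdkn1b, Trp53, Mdm2, Gadd45a, Gadd45b, Gadd45g, Bbc3, Bax and Ccng1. A probe set was taken as a member when the array's annotation paired it with exactly 1 gene and that gene was on the list. This gave 16 probe sets for 8 genes, out of 18193 genes paired with a probe set. The table used here paired no probe set with Trp53 or Bax, so both were not analysed here. A probe set counted only if at least 1 of its signals reached the median of its array, and the brightest such probe set stands for the gene. All 8 genes had one, as did 13117 genes in all.

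Affymetrix arrays measured liver RNA of male wild-type (wt) C57BL/6 mice aged 8 weeks. Mice of one group had both kidneys made ischaemic for 30 minutes at body warmth and then reperfused, and mice of the other had sham surgery. Livers were collected 24 hours later, and frozen liver of 3 mice per group was combined, so that each group is 1 pool on 1 array, here called the sham pool and the injury pool. There are therefore no replicates, no error and no test, and each difference describes these 2 pools. Values are deposited signals on a linear scale, and differences are log2(signal + 16) in the injury pool minus the sham pool, so that 1 on this scale is 2-fold. A gene is called 2-fold up or 2-fold down when this log2 difference was 1 or more in that direction. Printed folds are likewise taken on signals with 16 added. A signal under the array median (257.0 sham, 254.1 injury) was treated as dim, and a fold that involves one is printed as "at least", with the median put in its place.

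p53 is a transcription factor that is held low by the ubiquitin ligase MDM2 and is stabilised when DNA is damaged or the cell is stressed. It induces Cdkn1a, whose protein blocks cyclin-dependent kinases and so the step from G1 into S phase, and it induces Mdm2 itself, which closes a feedback loop. Several genes of the list also answer to other signals, among them the GADD45 genes, which respond to cytokines and to many kinds of stress. Hepatocytes of the adult liver are mostly quiescent, and Cdkn1a is known to restrain their division after injury.

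The sequences around transcription starts are shown for the 3 members that were 2-fold up and for the other measured members whose window holds a p53 half-site, the decamer of which p53 tetramers bind a pair. Each window runs from 250 bases before to 50 bases after a RefSeq start on GRCm38.p6 and is written 5′ to 3′ on the strand of the gene. Capitals mark p53 half-sites in the first 4 windows and, in the Gadd45g window, the reverse complement of TGATGCAA, an element of the C/EBP and ATF4 type.
Cdkn1a, chr17:29090729-29091028, plus strand: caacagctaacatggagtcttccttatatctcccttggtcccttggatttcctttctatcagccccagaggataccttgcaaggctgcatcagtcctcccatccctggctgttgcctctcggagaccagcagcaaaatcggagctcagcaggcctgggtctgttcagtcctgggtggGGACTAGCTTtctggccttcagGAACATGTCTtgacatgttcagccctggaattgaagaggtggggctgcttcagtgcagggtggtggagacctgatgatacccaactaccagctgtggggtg
Gadd45a, chr6:67037358-67037657, minus strand: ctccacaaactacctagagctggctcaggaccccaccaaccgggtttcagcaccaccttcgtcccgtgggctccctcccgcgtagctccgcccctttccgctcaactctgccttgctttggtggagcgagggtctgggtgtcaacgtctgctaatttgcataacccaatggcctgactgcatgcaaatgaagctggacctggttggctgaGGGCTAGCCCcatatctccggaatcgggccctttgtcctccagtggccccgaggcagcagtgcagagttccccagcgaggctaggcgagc
Mdm2, chr10:117710709-117711008, minus strand: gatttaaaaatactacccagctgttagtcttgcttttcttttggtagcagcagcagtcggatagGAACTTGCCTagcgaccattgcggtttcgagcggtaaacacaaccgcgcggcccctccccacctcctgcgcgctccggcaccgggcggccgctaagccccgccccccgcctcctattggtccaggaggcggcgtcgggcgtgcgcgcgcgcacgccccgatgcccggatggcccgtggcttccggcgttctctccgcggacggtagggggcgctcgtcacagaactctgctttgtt
Ccng1, chr11:40755237-40755536, minus strand: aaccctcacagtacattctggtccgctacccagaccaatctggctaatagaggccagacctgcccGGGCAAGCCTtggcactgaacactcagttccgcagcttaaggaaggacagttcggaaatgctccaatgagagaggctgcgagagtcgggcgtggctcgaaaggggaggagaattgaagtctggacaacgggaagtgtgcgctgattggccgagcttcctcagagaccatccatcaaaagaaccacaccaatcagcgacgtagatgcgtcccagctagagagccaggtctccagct
Gadd45g, chr13:51846425-51846724, plus strand: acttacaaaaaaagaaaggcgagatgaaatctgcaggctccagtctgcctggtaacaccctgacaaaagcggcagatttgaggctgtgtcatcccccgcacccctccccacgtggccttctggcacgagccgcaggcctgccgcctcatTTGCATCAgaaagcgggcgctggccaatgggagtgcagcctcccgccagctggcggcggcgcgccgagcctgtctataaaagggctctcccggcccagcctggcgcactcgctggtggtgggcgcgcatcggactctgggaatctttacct

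A p53 half-site stood in the windows of Cdkn1a, Trp53, Mdm2, Gadd45a, Bax and Ccng1, which is 6 of the 13 windows of the 10 genes (46.2%), against 8.36% of 32851 windows of all genes. Counted by gene, these were 6 of 10, against 9.55% of 27025 genes. The list was drawn up around p53 and holds known p53 targets, so these shares describe that choice and were not tested. The upstream Cdkn1a start had 2 half-sites, with 12 bases between them, and the other Cdkn1a start, 2790 bases further downstream, had none. The letters tgacatgttc, which directly follow GAACATGTCT, were not counted, and which decamers p53 binds as a pair was not examined. The windows of Cdkn1b, Gadd45b, Gadd45g and Bbc3 held no exact match to the half-site consensus. Decamers that depart from it at any base were not counted, so a weaker or imperfect half-site in these windows would be missed. TGATGCAA was found in the Gadd45g window alone among the members (0.895% of all windows), and neither TTCNNNGAA, a palindrome bound by STAT factors (8.30% of all windows), nor TGACGTCA, the cAMP response element (1.79%), was found in any member window. The CCAAT box was found in 61.5% of the 13 member windows, for every member but Cdkn1a and Bax, and in 37.4% of all windows. Both strands were searched, and no motif overlapped another in the windows printed. A match describes the letters and not a bound site, and no match says only that these letters are not in the window.

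Of the 8 measured genes, 3 were 2-fold up in the injury pool, namely Cdkn1a, Gadd45g and Gadd45a, and none was 2-fold down. That is 37.5% of them, whereas 8.71% of all 13117 genes were 2-fold up and 9.59% were 2-fold down. Their median log2 difference was 0.70, against -0.01 over all genes, with 6 members above 0 and 2 below. Of the 6 members with both signals at or above the array median, 2 were 2-fold up and none 2-fold down, against 5.14% and 6.17% of the 10923 genes of that kind. The list was drawn up with results of these arrays known, so its counts and its median are a description. The log2 differences of probe sets for the same gene had a pooled SD of 0.72, taken over the 5028 genes with more than 1 probe set past the filter. That SD was taken within the same 2 arrays and does not measure variation between mice or between pools. The differences of Cdkn1a and Gadd45g exceed it. That of Gadd45a (1.83) does so only as measured, since it passed the filter through the injury pool alone and stands at 0.34, under the SD, once its dim sham signal is raised to the median. That of Gadd45b (0.74) is about equal to it, and those of Ccng1, Mdm2, Cdkn1b and Bbc3 are smaller.

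**Figure D1:**
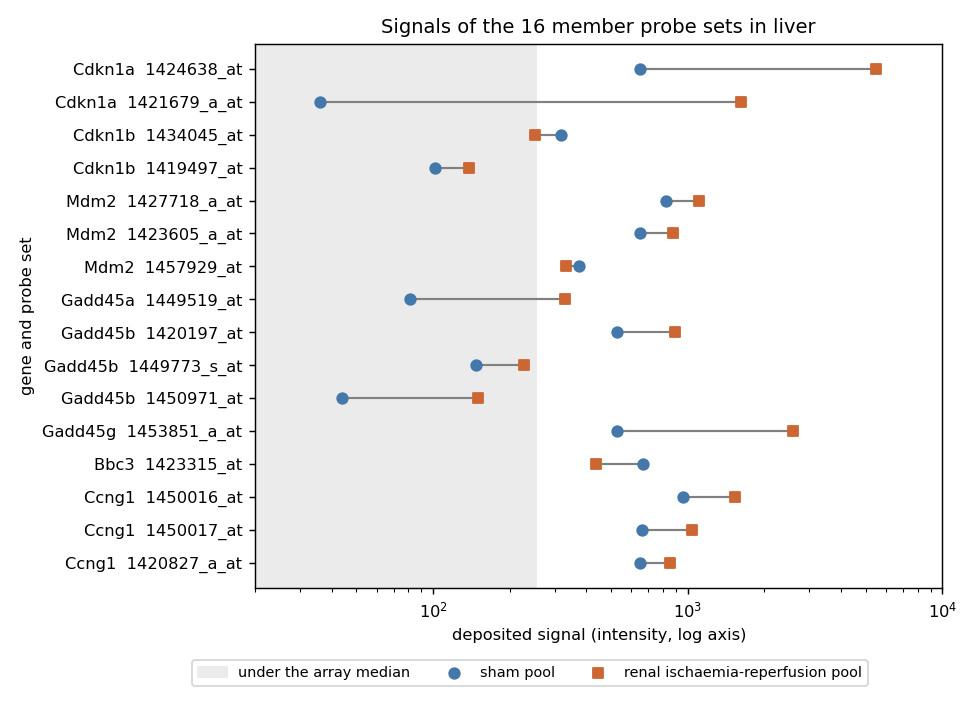
Deposited signal (log axis) of each of the 16 probe sets of the 8 measured genes, with a circle for the sham pool, a square for the renal ischaemia-reperfusion pool and grey shading under the array median. The brighter Cdkn1a probe set and the Gadd45g probe set span wide gaps outside the shading, the Gadd45a and lower Cdkn1a probe sets start inside it, and Bbc3, 1 probe set of Cdkn1b and 1 of Mdm2 run the other way.

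The inhibitors of cyclin-dependent kinases on the list parted. The brighter probe set of Cdkn1a (1424638_at) read 648.4 in the sham pool and 5476 in the injury pool, an 8.27-fold difference. Its other probe set (1421679_a_at) gave 36.0 and 1618, so that the sham signal was dim and the fold at least 5.99. Both probe sets were thus higher in the injury pool. The log2 difference of the brighter one was 3.05, and the 4.97 measured for the other has no exact meaning, because it was taken against a dim signal. By the brighter probe set, Cdkn1a stood at place 57 from the top of 13117 genes, and 99.6% of genes had a lower difference.

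Cdkn1b encodes p27, a related inhibitor that keeps cells in quiescence and is controlled in large part by breakdown of the protein. Its brighter probe set read 317.2 for sham and 252.4 for injury, the latter just under the median, a log2 difference of -0.31. Its other probe set had signals of 101.9 and 138.5, both dim, and ran the other way. The difference of Cdkn1b was smaller than the disagreement between probe sets, and the signs of its probe sets differed. No difference of the size seen for Cdkn1a was measured for this relative.

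**Figure D2:**
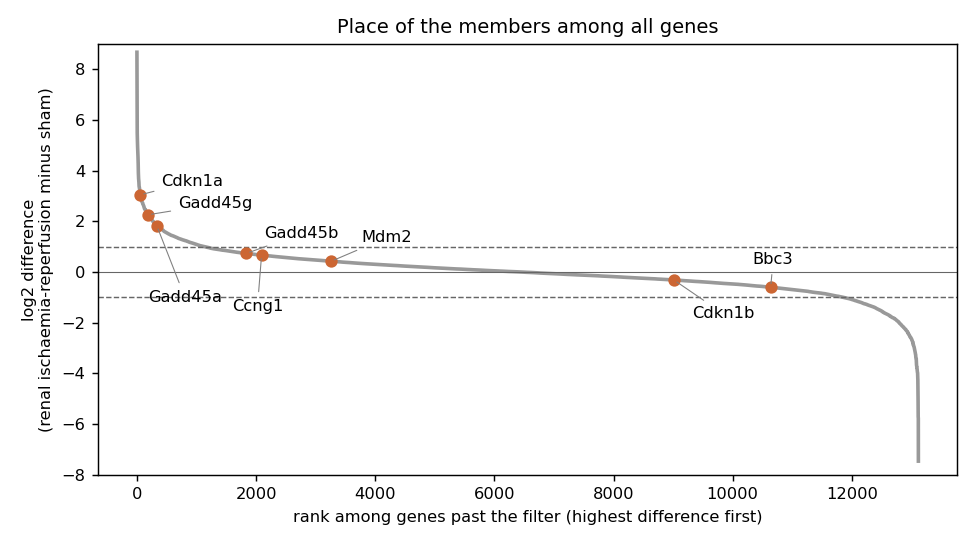
Log2 difference (renal ischaemia-reperfusion, the injury pool, minus sham) of all 13117 genes past the filter, ordered from highest to lowest (grey line), with the 8 measured members as dots and dashed lines at a 2-fold difference. Cdkn1a, Gadd45g and Gadd45a lie on the steep upper end at places 57, 187 and 334, while the other members lie on the flat middle of the curve.

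The GADD45 proteins are small acidic proteins that bind PCNA, p21 and the kinase MAP3K4, and they link stress to growth arrest and to the p38 and JNK pathways. All 3 genes had higher signals in the injury pool, to different extents. Gadd45g went from 527.7 to 2590, a 4.79-fold difference (log2 2.26), with both signals above the median, and stood at place 187 from the top.

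Gadd45a, the classical p53-responsive member of the family, went from 81.4 to 330.5. The measured log2 difference was 1.83, at place 334, but the sham signal was dim and the injury signal not far above the median, so the fold is at least 1.27 only. Its place among the genes 2-fold up rests on that dim signal.

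Gadd45b, which is induced by cytokines and TGF-beta, had 3 probe sets, and its brightest went from 527.2 to 888.8, a 1.67-fold difference. The others went from 147.2 to 228.0 and from 43.9 to 149.9, all of these signals being dim. The 3 probe sets had log2 differences of 0.74, 0.58 and 1.47, so that they shared the sign, and the highest of them came from the dimmest signals. One of them (1449773_s_at) is of a kind that can cross-hybridise. Gadd45b stayed below 2-fold by the probe set that represents it, and 86.0% of genes had a lower difference.

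Mdm2 and Ccng1 are direct p53 targets whose products act back on the pathway. MDM2 marks p53 for degradation, and cyclin G1 recruits a phosphatase that acts on MDM2. Mdm2 went from 820.6 to 1107 by its brightest probe set and from 650.1 to 874.0 by the next, log2 differences of 0.42 both, while the dimmest went from 375.8 to 331.9 (-0.17). Of its 3 probe sets, 2 were therefore higher by about the same amount and 1 slightly lower. Over all genes, 75.1% had a lower difference than Mdm2, whose value equals the upper quartile (0.42).

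Ccng1 was higher by each of its 3 probe sets, whose signals went from 956.6 to 1529, from 658.6 to 1042 and from 648.8 to 848.8. The log2 differences were 0.67, 0.65 and 0.38, all under 2-fold, and all 6 signals were above the median. Every Ccng1 reading in the injury pool was thus above its sham reading, by a modest amount.

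Bbc3 encodes PUMA, a BH3-only protein through which p53 triggers apoptosis at mitochondria. It was the lowest member, with 669.7 for sham and 437.3 for injury by its only probe set, a 1.51-fold difference (log2 -0.60). Its place was 2480 from the bottom, so 18.9% of genes had a lower difference. Of the 4 measured members whose printed window holds a half-site, all were above 0, at 3.05 for Cdkn1a, 1.83 for Gadd45a, 0.67 for Ccng1 and 0.42 for Mdm2. Of the 4 without an exact match, Gadd45g (2.26) and Gadd45b (0.74) were above 0 and Cdkn1b (-0.31) and Bbc3 (-0.60) were below. These are 8 genes on 2 arrays, and no relation between the letters and the signals was tested.

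Genes connected to the members were taken from 8 lists, with the members left out. Over these lists the share 2-fold up ran from 0% to 22.2%, against 8.71% of all genes. The share 2-fold down ran from 4.17% to 15.8%, against 9.59% of all genes. No list was tested against these shares. Of 25 further p53 targets of growth arrest, DNA repair and metabolism, 18 had a value, of which 4 were 2-fold up and 2 were 2-fold down. Their median was 0.00, with 9 above 0 and 9 below. Btg2, an antiproliferative protein induced by p53, went from 672.2 to 2598 (3.80-fold), and both its probe sets were higher. Ddit4, an inhibitor of mTOR signalling that also answers to glucocorticoids and hypoxia, read 195.3 and 981.3, at least 3.65-fold higher. Plk2, a polo-like kinase, and Zmat3, an RNA-binding protein, were higher by bounds of only 1.34-fold and 1.96-fold. Sesn3, a sestrin that is also a FOXO target, went from 1180 to 341.9 (3.34-fold lower), and the unconventional cyclin gene Ccng2, another FOXO target, was at least 2.49-fold lower. Among the 14 without a dim signal, 1 was 2-fold up and 1 was 2-fold down.

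Regulators and relatives of p53 numbered 24 with a value and a median of 0.02, of which none was 2-fold up and 1 was 2-fold down. By the most different probe set of each gene, 2 were 2-fold up and 2 were 2-fold down, against 1763 and 1847 of all 13117 genes. The gene 2-fold down by the brightest probe sets was Hipk2, a kinase that phosphorylates p53, with signals of 1966 and 898.7. Of its 7 probe sets past the filter, 2 ran the other way. Atm, the kinase that senses double strand breaks, stood at -0.75. Mdm4, the partner of MDM2 in restraining p53, stood at 0.62 with all 3 probe sets above 0, and the histone gene H2ax at 0.76.

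Genes of the BCL2 family, death receptors and caspases numbered 28 with a value and a median of 0.21, of which 3 were 2-fold up and 2 were 2-fold down. By the brightest probe sets these are 10.7% and 7.14%, close to the 8.71% and 9.59% of all genes. By the most different probe set of each gene, 9 of the 28 were 2-fold up and 5 were 2-fold down. At that setting 1763 of all 13117 genes were 2-fold up and 1847 were 2-fold down. Casp8, the initiator caspase of death receptors, went from 794.1 to 1886 (2.35-fold). Apaf1, the scaffold of the apoptosome, was at least 2.46-fold higher, and Tnfrsf10b, the TRAIL receptor, at least 1.36-fold, by a cross-hybridising kind of probe set. Bad, a BH3-only protein like PUMA, read 792.2 and 123.7, at least 2.99-fold lower, and Casp9, the caspase that APAF1 activates, was lower by a bound of 1.05-fold. Of the 24 without a dim signal, 1 was 2-fold up and none 2-fold down.

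**Figure D3:**
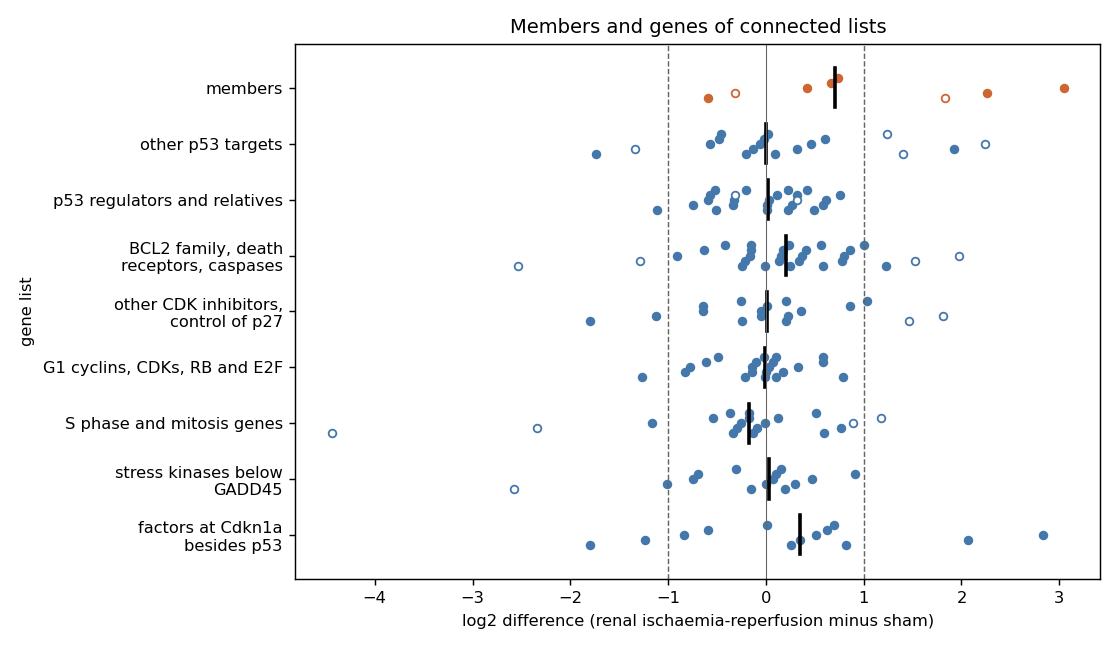
Log2 difference (renal ischaemia-reperfusion minus sham) of the 8 measured members and of the genes of 8 connected lists, 1 dot per gene, filled where both signals were at or above the array median and open where 1 was under it, with a black bar at each median and dashed lines at a 2-fold difference. The members have the highest median (0.70), the other p53 targets are spread around 0.00, and the S phase and mitosis genes have the lowest median (-0.17).

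Other inhibitors of cyclin-dependent kinases and genes that control p27 numbered 17 with a value and a median of 0.01, of which 3 were 2-fold up and 2 were 2-fold down. Cdkn2b, the p15 gene, was higher by a bound of 1.26-fold, and Cdkn2d, the p19 gene of the INK4 family, by at least 2.19-fold (signals 200.5 and 581.0). Cks1b, a cofactor of the ligase that degrades p27, went from 612.3 to 1270 (2.05-fold). Foxo3, a transcription factor that induces Cdkn1b, went from 1132 to 313.9 (3.48-fold lower), with both probe sets lower, and Cul4a, a cullin of the ligase that degrades p21, from 1113 to 502.7 (2.18-fold lower).

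Genes of G1 cyclins, their kinases, RB and E2F numbered 21 with a value and a median of -0.01, of which 1 was 2-fold down and none 2-fold up. By the most different probe set of each gene, 5 were 2-fold down and 2 were 2-fold up. At that setting 1847 of all 13117 genes were 2-fold down and 1763 were 2-fold up. The gene 2-fold down by the brightest probe sets was Rbl2, the p130 pocket protein of quiescent cells, with signals of 811.6 and 328.8. Genes of S phase and mitosis had a value for 19 of 34 and a median of -0.17, with 1 gene 2-fold up and 3 genes 2-fold down. Wee1, the kinase that holds CDK1 inactive and is driven by the circadian clock, was at least 5.90-fold lower (1578 and 57.6). Tk1, a thymidine kinase of S phase, was at least 2.51-fold lower, and Cdc20, an activator of the anaphase promoting complex, 2.25-fold lower with both probe sets lower. Mcm3, part of the replicative helicase, was higher by a bound of 1.52-fold, and its other probe set ran the other way. The probe set that represents it is of a kind that can cross-hybridise. Without such probe sets no gene of this list was 2-fold up. The remaining 15 genes of this list had no value, 14 of them because both signals were dim.

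The list of stress kinase pathways linked to the GADD45 proteins also holds Jun, Atf2, Dusp1 and Dusp10, which encode no kinases. It had 14 genes with a value and a median of 0.04, with none 2-fold up and 2 genes 2-fold down. Map3k4, the kinase that GADD45 proteins bind, went from 655.5 to 318.0 (2.01-fold lower), and all 4 probe sets past the filter were lower. Map2k6, a kinase that activates p38, was at least 1.87-fold lower (488.9 and 68.5). By the brightest probe sets, Mapkapk2, a kinase below p38, was the highest at 0.91. For Jun, the target of JNK, the probe sets past the filter differed, the brighter at 0.00 and the other at 3.62. With the mean of probe sets 1 gene of this list was 2-fold up, and with the most different probe set 3 were. The count 2-fold down was 2 in both. Of all 13117 genes, 1163 were 2-fold up and 1267 were 2-fold down with the mean of probe sets. With the most different probe set these were 1763 and 1847.

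Transcription factors known to act at Cdkn1a besides p53 numbered 13 with a value and a median of 0.35, of which 2 were 2-fold up and 2 were 2-fold down. Egr1, an immediate early factor, went from 841.8 to 6094 (7.12-fold). Stat3, the factor through which interleukin 6 acts on hepatocytes, went from 1624 to 6856 (4.19-fold), although 1 of its 3 probe sets stood at -0.46. Cebpa, which restrains hepatocyte division, went from 9331 to 3946 (2.36-fold lower), and Foxo3 stands in this list too. Whether any of these differences bears on that of Cdkn1a was not tested.

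The genes with both signals above the median whose log2 difference was nearest to that of Cdkn1a were S100a10 (3.07), Lyve1 (3.01, also an endothelial marker), Prg4 (3.09), Scara5 (2.98) and Lepr (3.17). Likeness here is the gap between differences over 2 arrays, at most 0.12, and says nothing more of these genes.

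All 6 hepatocyte markers were above the median in both pools, as the tissue label says, with log2 differences from -1.12 to 0.73. Alb read 43573 and 72494, Hnf4a 10775 and 10317, and Cps1, an enzyme of the urea cycle, was 2-fold down (33265 and 15307). The summed signal of the 6 was 191437 and 236400. Markers of other cell types differed in both directions. Of 5 cholangiocyte markers with a probe set, 3 were 2-fold up (Krt19, Epcam and Sox9) and 2 were dim in both pools. The sham signals of Krt19 (72.4) and Epcam (180.6) were dim, and the summed signal of the 5 was 761.7 and 2469. Of 5 neutrophil markers, S100a8 and S100a9 were 2-fold up and Cxcr2 was 2-fold down, with sums of 1842 and 3800. Each of these 3 calls rests on a dim signal, in the sham pool for S100a8 (45.6) and S100a9 (204.8) and in the injury pool for Cxcr2 (107.6). Of 4 markers of pancreatic acinar cells, 3 were 2-fold up, with sums of 2784 and 6103. Among them Cpa1 (18.5) and Ctrb1 (115.6) had dim sham signals. Of 6 markers of sinusoidal endothelium, Lyve1 was 2-fold up (3.01) and Clec4g was 2-fold down (-1.05), with sums of 7565 and 8109. Of 6 stellate cell markers, Lrat was 2-fold down (-1.33), its injury signal being dim, and the sums were 5043 and 4380. Kupffer cell markers had none of 6 past 2-fold either way and sums of 8427 and 6635. The same held for 5 markers of T and B lymphocytes (sums 3218 and 3426) and 2 of erythroid cells (3117 and 2378). No marker was listed at 0, and the part of other cells in the differences of the members was not tested. In such bulk RNA, fewer cells of a type and less RNA per cell cannot be told apart.

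All 18 hybridisation control probe sets were higher on the injury array, by a median log2 difference of 0.28. With them as the reference, 756 of all genes were 2-fold up and 2016 were 2-fold down, in place of 1143 and 1258. The median of all genes then stood at -0.30, Cdkn1a at 2.76, Gadd45g at 1.98, Gadd45a at 1.55 and Mdm2 at 0.14, so each measured member kept its sign and the same 3 were 2-fold up.

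**Figure D4:**
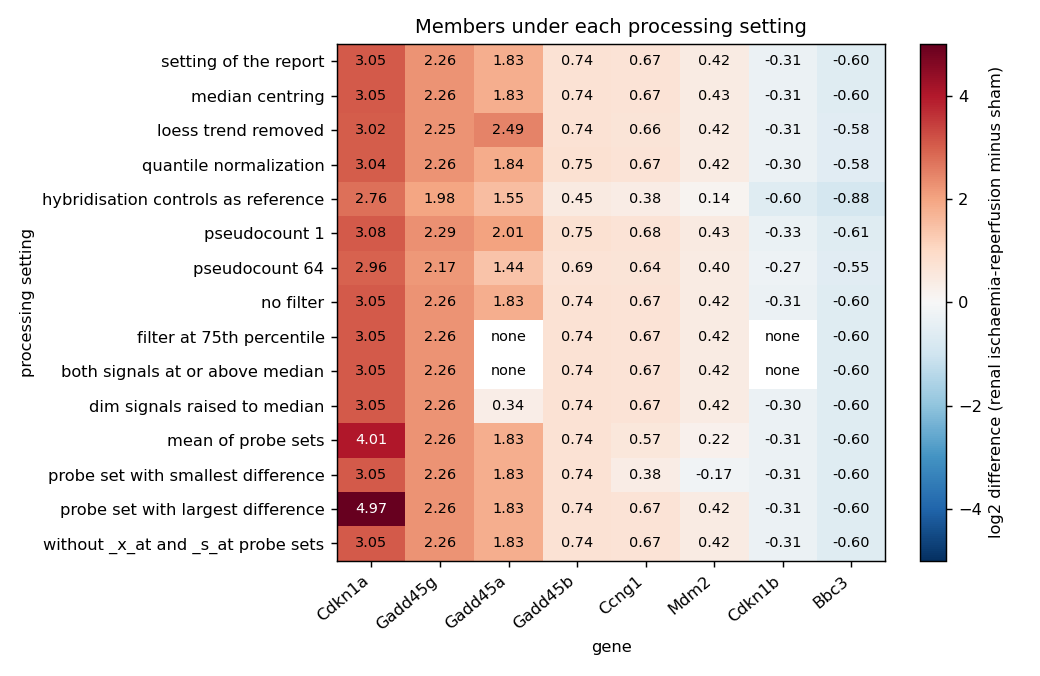
Log2 difference (renal ischaemia-reperfusion minus sham) of the 8 measured members under the setting of the report and 14 others, 1 row per setting and 1 column per gene, with red above 0 and blue below. Cdkn1a lies between 2.76 and 4.97, its 2 values above 3.08 taking in the probe set with a dim sham signal, and Gadd45g between 1.98 and 2.29, while Gadd45a goes from 0.34 to 2.49 and Mdm2 is below 0 in 1 setting.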

How the data were processed

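Liver RNA of 2 pools, each of 3 mice, was measured on 1 array each; groups come from the treatment labels. Per the labels' protocols, RNA was extracted with Trizol and biotinylated cRNA was made from 6 ug. The deposited values are an intensity per probe set on a linear scale, and the authors had scaled them, since the mean after trimming 2% at either end was 500.0 for both. Not given in the sources used here are the summarising software and the treatment of background. The arrays' number limits the precision.

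Here, 45037 probe sets that are not controls were named through the platform annotation (34945 with 1 gene), with symbols updated through Entrez IDs. Filter, log2 scale and choice of probe set are as in the results. All genes were processed together in Python 3.11.15 (pandas 2.3.3, statsmodels 0.14.6), and the steps were run on simulated data. There, differences were set only in genes with a bright probe set, with noise below the disagreement between probe sets. Genes with only dim signals were therefore not covered. Differences were counted at 2-fold, since 1 array per group allows no test. Named were all members, the 2 highest and 2 lowest genes of each list at most and those past 2-fold, and the 5 genes nearest to Cdkn1a. The members and lists were chosen with earlier results of these data known. Promoter windows came from RefSeq (GRCm38.p6). The sources name no build for the arrays.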

Additional observations from a re-analysis of the deposited data

How the results depend on the processing

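Of 14 alternatives in scaling, pseudocount, filter and choice of probe set, none changed the sign of a member that was 2-fold up. The count of members 2-fold up was 2 or 3 in all of them, and the count 2-fold down was 0. The count of 2 arose with a filter at the 75th percentile, with both signals at or above the median and with dim signals raised to the median, where Gadd45a was lost or stood at 0.34. At a threshold of 1.5-fold, 5 members were higher and 1 was lower, among 2449 and 2536 of all genes, and at 3-fold 3 were higher and none lower, among 472 and 589. The median of the members lay between 0.42 (hybridisation controls as the reference) and 0.71. Mdm2 stood at -0.17 when its least different probe set was taken. Cdkn1a stood at 4.01 by the mean of its probe sets. The medians of the connected lists lay between -0.46 and 0.51 in these alternatives. Of 256 counts over these lists, 71 differed from the count of the report by over 1.5 times, 23 of them under the other thresholds, so single counts of a few genes depend on the setting. Over all genes, 1143 were 2-fold up and 1258 were 2-fold down, against 563 and 676 when both signals had to reach the median, 682 and 797 with the filter at the 75th percentile, 733 and 869 with dim signals raised, and 1763 and 1847 by the most different probe set of each gene. No paired analysis was possible because each group is 1 pool. Dim signals limit Gadd45a, the lower Cdkn1a probe set and 2 of 3 Gadd45b probe sets most.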
